A study of Mus musculus with 6 samples.

Results

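The miR-29 family is a set of small RNAs that silence messages of collagens and other matrix proteins, and it was described here in cultured mouse epicardial cells with and without targeting of Hdac3. Its members were taken by name, as every row of the count table called miR-29a, miR-29b, miR-29b-1, miR-29b-2 or miR-29c, with or without an arm suffix. That gave 7 of 1028 microRNAs. Knockout cells (KO, 3 libraries) were transduced with a lentivirus carrying a guide RNA for CRISPR/Cas9 knockout of Hdac3, a histone deacetylase of repressor complexes. The control cells (EV, 3 libraries) received an empty-vector lentivirus. Both groups are the same epicardial cell line, grown in high-glucose medium with fetal bovine serum, so both carry a lentiviral vector. The labels do not give the guide, whether clones were picked, or whether the 3 libraries of a group were separate cultures, and p-values therefore measure only the spread between these libraries, which may be technical.

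Each miR-29 hairpin is cut into a 5p and a 3p arm, and the 3p arm is the one usually loaded into Argonaute as the guide. The guide finds messages through its seed, bases 2 to 8, and in cardiac fibroblasts of mice miR-29 is known for repressing Col1a1, Col1a2, Col3a1, Eln and Fbn1. Epicardial cells are known as a source of cardiac fibroblasts during heart development. The libraries hold small RNA only, so neither a collagen message nor Hdac3 itself was measured, and the knockout could not be checked in them.

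The mature sequences show which members share targets by seed. They are given 5′ to 3′ from RefSeq (GRCm38.p6), where all 7 names matched, with bases 2 to 8 in capitals. The 3p arms share 1 seed:
miR-29a-3p: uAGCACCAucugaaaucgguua
miR-29b-3p: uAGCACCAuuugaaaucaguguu
miR-29c-3p: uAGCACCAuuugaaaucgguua

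The 5p arms each have a seed of their own:
miR-29a-5p: aCUGAUUUcuuuugguguucag
miR-29c-5p: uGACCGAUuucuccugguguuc
miR-29b-1-5p: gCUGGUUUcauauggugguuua
miR-29b-2-5p: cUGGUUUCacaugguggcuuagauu

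The seeds of miR-29b-1-5p and miR-29b-2-5p, CUGGUUU and UGGUUUC, overlap, because both arms hold the same stretch and start at different bases of it. The seed AGCACCA pairs with UGGUGCU in a message. Of the 1679 mature names in the RefSeq table, 3 carry this seed, and all 3 are the miR-29 3p arms. Counted from the 5′ end, miR-29a-3p and miR-29c-3p differ by 1 base, C10U. miR-29b-3p differs from miR-29c-3p by G18A, U21G and A22U and has a further base at its end. These changes leave miR-29b-3p with AGUGUU as its last bases, an element described in human miR-29b as directing it to the nucleus. It is the only miR-29 member with AGUGUU, which 7 of the 849 microRNAs of the count table with a RefSeq sequence hold anywhere (0.824%, read on the given strand only). Of the 849, 2 have it as their last bases, miR-29b-3p included. The number of mismatches allowed in the authors' alignment was not given in the sources used here, and counts of miR-29c-3p beside the near-identical miR-29a-3p are uncertain for that reason. The same holds for miR-29b-1-5p and miR-29b-2-5p, which are near-identical where they overlap.

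The 4 hairpins lie in 2 pairs. Mir29a (chr6:31062660-31062747) and Mir29b-1 (chr6:31063023-31063093) are on the minus strand of chromosome 6, 275 bases apart, and apart from 2 bases of Mir29b-1 in the long noncoding gene Gm27019 they lie outside other annotated genes in GENCODE M21. Mir29b-2 (chr1:195037040-195037120) and Mir29c (chr1:195037547-195037634) are on the plus strand of chromosome 1, 426 bases apart. The Mir29b-2 and Mir29c pair lies within exon 3 of the noncoding transcript A330023F24Rik-204 and opposite exon 11 of Cd46, which is read from the other strand. Mature miR-29b-3p is the same from both loci, so its reads cannot be assigned to either. The sources used here do not say how reads matching several loci were counted, and the miR-29b-3p count may be split, doubled or reduced for that reason. The other 6 members each come from 1 hairpin. The hairpins of miR-29a and miR-29c are shown because their arms are compared, with the 5p and then the 3p arm in capitals:
Mir29a: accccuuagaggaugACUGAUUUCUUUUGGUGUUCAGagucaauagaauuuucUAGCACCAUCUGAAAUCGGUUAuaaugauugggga
Mir29c: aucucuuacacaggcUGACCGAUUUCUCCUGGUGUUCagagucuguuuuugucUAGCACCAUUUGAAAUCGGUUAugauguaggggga

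The libraries held 11824881 to 13412774 microRNA counts, and 63.0% to 70.1% of them were miR-21a-5p, known for high levels in fibroblasts. Levels are given as CPM. These are reads per 1000000 after each library total was multiplied by a TMM scaling factor, which ranged from 0.919 to 1.23 and was highest in EV 1. A single read was worth 0.0637 to 0.0892 CPM. All 5 mesenchymal microRNAs listed were present, with summed levels of 761489 to 833933 CPM in KO and 589456 to 837452 CPM in EV, almost all of it miR-21a-5p and miR-143-3p. The other 3 were at 311 to 399 CPM in KO and 279 to 375 CPM in EV (miR-145a-5p), 2092 to 2354 CPM in KO and 2353 to 2473 CPM in EV (miR-199a-3p), and 386 to 446 CPM in KO and 419 to 538 CPM in EV (miR-214-3p). No microRNA marks the epicardium alone. The 2 listed endothelial microRNAs summed to 34.7 to 35.4 CPM in KO and 36.6 to 42.1 CPM in EV. The 4 muscle microRNAs present, of 5 listed, summed to 21.0 to 25.1 CPM in KO and 26.3 to 27.2 CPM in EV. Within that sum miR-1a-3p was higher in KO. miR-122-5p of liver had 0.638 to 3.24 CPM in KO and 0.408 to 0.637 CPM in EV. KO and EV did not overlap in the endothelial and muscle sums, in miR-1a-3p or in miR-122-5p. Among single microRNAs tested below, 29.1% did not overlap. For miR-122-5p the nearest values, 0.638 CPM in KO 2 and 0.637 CPM in EV 1, were almost equal, and 3.24 CPM was KO 1 alone. The muscle sum was mostly miR-206-3p, at 18.8 to 22.5 CPM in KO and 25.4 to 25.9 CPM in EV. The 7 listed blood-cell microRNAs summed to 6.16, 78.3 and 9.99 CPM in KO 1, KO 2 and KO 3, and to 8.92, 10.6 and 68.4 CPM in EV 1, EV 2 and EV 3. miR-451a of red blood cells made up most of the sum in KO 2 and EV 3, while miR-144-3p, miR-223-3p and miR-142a-3p were at 0 in all KO libraries and in EV 1 and EV 3. The 3 listed neural microRNAs, nearly all miR-9-5p, were highest in the same libraries and summed to 58.9 CPM in KO 2, 21.2 CPM in KO 1 and 16.8 CPM in KO 3, against 54.6 CPM in EV 3, 34.0 CPM in EV 2 and 13.1 CPM in EV 1. The part of both in the miR-29 results was not tested beyond leaving KO 2 and EV 3 out.

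miR-29 reads were almost all miR-29a-3p. The 7 members had 30747 reads over the 6 libraries, of which miR-29a-3p took 94.0%. It was the member at rank 62 by mean level among the 460 microRNAs that passed the filter on low counts, and miR-29b-3p stood at rank 233, miR-29c-5p at 295, miR-29c-3p at 338 and miR-29a-5p at 414. miR-29b-1-5p and miR-29b-2-5p, the 5p arms of the miR-29b hairpins, did not pass. Levels of different microRNAs also depend on how well each is ligated, so this order is one of reads.

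**Figure D1:**
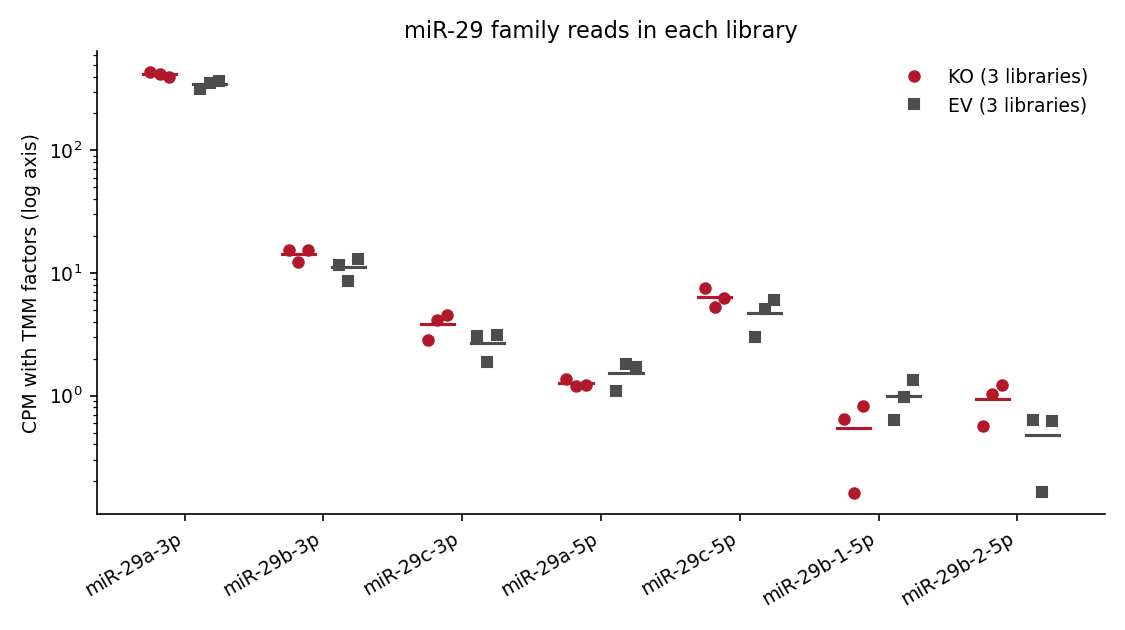
CPM with TMM factors (log axis) of the 7 miR-29 members, with 1 point per library and a bar at the mean of 3 libraries, KO left of EV. For miR-29a-3p the KO points (399 to 437) lie above the EV points (315 to 366); for the other 6 members the groups overlap.

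miR-29a-3p, the main guide arm of the family, was higher in every KO library than in any EV library. It had 437, 418 and 399 CPM in KO 1, KO 2 and KO 3, from 5390, 5236 and 4875 reads. EV 1, EV 2 and EV 3 had 315, 355 and 366 CPM, from 4946, 4355 and 4103 reads. The KO values were close together, and the lowest of them, in KO 3, lay above the highest EV value, in EV 3. The means were 418 ± 18.9 CPM in KO and 346 ± 26.9 CPM in EV (SD, n = 3 each), a 1.21-fold difference with a 95% interval of 1.07 to 1.37. The log2 change of 0.27 (SE 0.08) had an unadjusted p of 0.00640 and did not pass after adjustment over all tested microRNAs (edgeR quasi-likelihood, two-sided, Benjamini-Hochberg adjusted p = 0.0672).

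The call on miR-29a-3p depended on the test and the libraries. The authors' deposited table, which lists 78 microRNAs with adjusted p up to 0.0488, holds miR-29a-3p as its only miR-29 entry, with a log2 change of 0.25 and an adjusted p of 0.00673. That table gives authors' mean normalized counts of 5214 in KO and 4364 in EV for it. DESeq2 on the same counts gave an adjusted p of 0.0534 with its default dispersion trend and 0.00763 with a local trend, at a log2 change of 0.26 in both (SE 0.09 and 0.08). Leaving out EV 3 made it a call by edgeR (0.32 on the log2 scale, SE 0.08, adjusted p = 0.0342, where 12.3% of all tested microRNAs were called). So did the filter of 10 CPM in 3 libraries (adjusted p = 0.0464, where 16.2% were called). Over its 16 alternatives the adjusted p ran from 0.00763 to 0.498.

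The separation of the groups rested on the scaling factors. Per 1000000 reads of the library total alone, miR-29a-3p stood at 402, 412 and 377 in KO 1, KO 2 and KO 3 and at 386, 368 and 336 in EV 1, EV 2 and EV 3. On that scale KO 3 lay below EV 1, so the groups overlapped. The log2 change was then 0.13 (SE 0.10, edgeR adjusted p = 0.498), with the median over all tested microRNAs at -0.16 in place of -0.01.

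**Figure D2:**
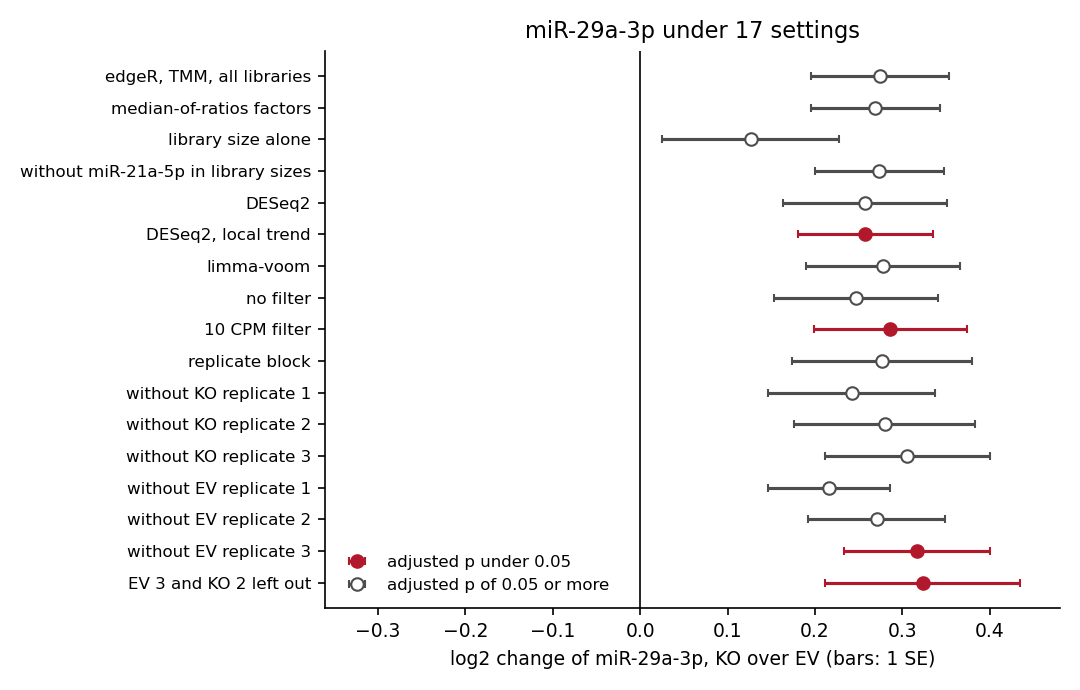
Log2 change of miR-29a-3p, KO over EV, with bars of 1 SE, in 17 settings; filled points passed an adjusted p of 0.05. Every point lies above 0, from 0.13 with library size alone to 0.32 with EV 3 and KO 2 left out, and 4 of 17 are filled.

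The other 3p arms, which share the seed, had higher means in KO with overlapping groups. miR-29b-3p had 15.4, 12.2 and 15.5 CPM in KO 1, KO 2 and KO 3, against 11.6, 8.65 and 13.0 CPM in EV 1, EV 2 and EV 3. KO 1 and KO 3 lay above all EV libraries, and KO 2 lay between EV 1 and EV 3. The log2 change was 0.37 (95% interval -0.04 to 0.79, edgeR adjusted p = 0.254). miR-29c-3p had 2.84, 4.15 and 4.50 CPM in KO 1, KO 2 and KO 3, against 3.06, 1.88 and 3.12 CPM in EV 1, EV 2 and EV 3, from 23 to 55 reads a library. KO 1 lay below EV 1 and EV 3. The log2 change was 0.51 (95% interval -0.05 to 1.06, edgeR adjusted p = 0.254).

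Taken as a pool of guides with 1 seed, the 3p arms summed to 455, 434 and 419 CPM in KO 1, KO 2 and KO 3, and to 330, 366 and 382 CPM in EV 1, EV 2 and EV 3. The make-up of the pool was nearly the same in both groups. miR-29a-3p was 95.8% ± 0.522 of it in KO and 96.2% ± 0.849 in EV, miR-29b-3p 3.30% ± 0.447 in KO and 3.10% ± 0.636 in EV, and miR-29c-3p 0.884% ± 0.234 in KO and 0.752% ± 0.215 in EV (SD, n = 3 each). The pool as a whole was 0.0414% ± 0.00162 of all reads in KO and 0.0378% ± 0.00264 in EV (SD, n = 3 each). As a share of all reads the groups overlapped. KO 3, with 5119 of 12919981 reads, lay below EV 1, with 5176 of 12806873 reads. The separation of the pool in CPM thus also rested on the scaling factors.

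Ratios between members within a library need no scaling factor, and 4 of 5 pairs had enough reads (at least 10 for both members in every library). The log2 ratio of miR-29b-3p to miR-29a-3p averaged -4.87 ± 0.207 in KO and -4.97 ± 0.330 in EV (SD, n = 3 each), a difference of 0.11 (exact permutation p = 0.7, two-sided). That of miR-29c-3p to miR-29a-3p averaged -6.78 ± 0.413 in KO and -7.02 ± 0.455 in EV (SD, n = 3 each), a difference of 0.24 (exact permutation p = 0.5). Without EV 2 these differences were -0.0825 and -0.0186. For miR-29b-3p to miR-29c-3p the difference was -0.13 (exact permutation p = 0.7). With 3 libraries against 3 this test cannot give a p below 0.1, so a missed threshold does not show that the arms moved alike.

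miR-29c-5p, which had more reads than its 3p partner, also had a higher mean in KO. It had 7.54, 5.26 and 6.31 CPM in KO 1, KO 2 and KO 3, from 93, 66 and 77 reads. EV 1, EV 2 and EV 3 had 2.99, 5.06 and 5.98 CPM, from 47, 62 and 67 reads. Only KO 2 lay inside the EV range, and EV 1 was the lowest library. The log2 change was 0.46 (95% interval -0.10 to 1.02, edgeR adjusted p = 0.306).

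miR-29a-5p, the passenger arm of the abundant guide, did not follow its partner's direction. It had 1.38, 1.20 and 1.23 CPM in KO 1, KO 2 and KO 3 and 1.08, 1.796 and 1.70 CPM in EV 1, EV 2 and EV 3, from 15 to 22 reads a library. The KO values lay within the EV range, and the log2 change was -0.24 (95% interval -0.95 to 0.46, edgeR adjusted p = 0.666). Scaled by library size alone, all 3 KO values, 1.16 to 1.27, lay below the EV values, 1.33 to 1.86, as did those of 18.5% of all tested microRNAs on that scale (23.9% did not overlap in either direction).

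The 5p arms of the miR-29b hairpins, which come from 1 locus each, were at the edge of detection. Their sequences are near-identical where they overlap, so reads of either may have been counted for the other. miR-29b-1-5p, from chromosome 6, had 8, 2 and 10 reads in KO 1, KO 2 and KO 3 and 10, 12 and 15 reads in EV 1, EV 2 and EV 3. miR-29b-2-5p, from chromosome 1, had 7, 13 and 15 reads in KO 1, KO 2 and KO 3 and 10, 2 and 7 reads in EV 1, EV 2 and EV 3. The means were 0.542 ± 0.342 CPM in KO and 0.985 ± 0.351 CPM in EV for miR-29b-1-5p, and 0.944 ± 0.340 CPM in KO and 0.475 ± 0.270 CPM in EV for miR-29b-2-5p (SD, n = 3 each). The groups overlapped for both in CPM, and neither could be tested with the other microRNAs. Scaled by library size alone, miR-29b-1-5p had 0.596, 0.157 and 0.774 in KO 1, KO 2 and KO 3, all below the 0.781, 1.01 and 1.23 in EV 1, EV 2 and EV 3, while miR-29b-2-5p overlapped. The nearest of these values, in KO 3 and EV 1, rest on 10 reads each. On that scale 18.5% of all tested microRNAs had every KO value below the EV values (23.9% did not overlap in either direction). Fitted without the filter, their log2 changes were -0.85 (95% interval -1.89 to 0.18) and 0.93 (95% interval -0.14 to 1.99), with edgeR adjusted p of 0.492 and 0.458.

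Of the 5 tested members none was called by edgeR, against 7.61% of all 460 tested microRNAs (35 called). At an unadjusted p under 0.05 there was 1 member, miR-29a-3p, beside 106 of 460 microRNAs (23.0%). DESeq2 with its default trend and limma-voom called 0 members each, where they called 11.3% and 8.26% of the microRNAs they tested. DESeq2 with a local trend called 1 member, where it called 18.7%. Log2 changes were above 0 for 4 members and below 0 for miR-29a-5p, with a median of 0.37, beside a median of -0.01 over all 460, of which 48.3% lay above 0. These signs held for the tested members with library size alone and with every other scaling. Among the tested members miR-29a-3p alone had groups that did not overlap in CPM, as did 29.1% of all tested microRNAs (15.2% with KO above EV).

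**Figure D3:**
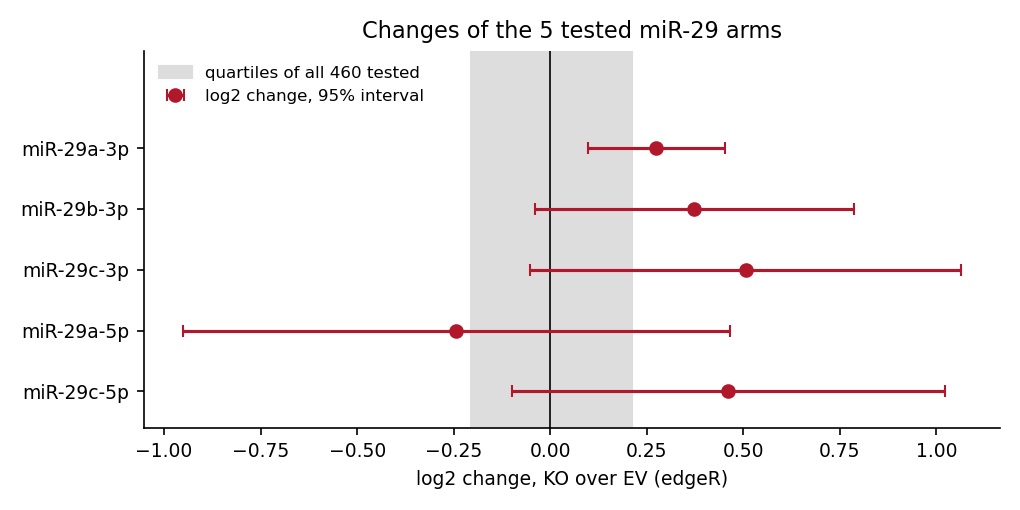
Log2 change, KO over EV, with 95% intervals for the 5 tested miR-29 arms; the grey band spans the quartiles of all 460 tested microRNAs, -0.20 to 0.21. The interval of miR-29a-3p (0.10 to 0.45) lies above 0 and the other 4 intervals include 0.

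Leaving out EV 3 and KO 2, the libraries highest in miR-451a and miR-9-5p, gave calls for 3 members, where 18.7% of all tested microRNAs were called. These were miR-29a-3p at 0.32 (SE 0.11, edgeR adjusted p = 0.0368), miR-29b-3p at 0.61 (SE 0.19, edgeR adjusted p = 0.0252) and miR-29c-5p at 0.81 (SE 0.25, edgeR adjusted p = 0.0216). All 3 were higher in KO, and each group then held 2 libraries.

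The hairpins of miR-29a and miR-29c used their arms very differently. The 5p arm made up 0.302% ± 0.0149 of the reads of the miR-29a hairpin in KO and 0.435% ± 0.0831 in EV, but 62.3% ± 9.04 of those of the miR-29c hairpin in KO and 62.7% ± 12.02 in EV (SD, n = 3 each). Over the 6 libraries miR-29c had 412 reads of its 5p arm and 248 of its 3p arm, while miR-29a had 105 of its 5p and 28905 of its 3p arm. Among the 133 hairpins with both arms tested, miR-29a ranked 130 and miR-29c 69 by the mean log2 ratio of 5p to 3p reads, which lay above 0 in 75 hairpins (56.4%). As the sequences show, the 3p arms of these hairpins differ by C10U alone, so the 3p count of miR-29c, and its arm ratio with it, carries the uncertainty named above.

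Arm use did not change detectably with Hdac3 targeting. The log2 ratio of 5p to 3p reads of miR-29a averaged -8.32 ± 0.0699 in KO and -7.82 ± 0.287 in EV (SD, n = 3 each), a difference of -0.50 (SE 0.20, limma adjusted p = 0.672). The adjustment was over all 133 hairpins, and the unadjusted limma p was 0.0354. In all 3 KO libraries the ratio was below that of every EV library, as it was in 4.51% of the 133 hairpins (12% did not overlap in either direction). For miR-29c it averaged 0.74 ± 0.574 in KO and 0.77 ± 0.733 in EV (SD, n = 3 each), a difference of -0.03 (SE 0.43, limma adjusted p = 0.984). limma called 0% of the 133 hairpins, and 9 had an unadjusted p under 0.05.

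The loci could be compared by the 3p arms of miR-29a and miR-29c and by the 5p arms, each of which comes from 1 hairpin. For miR-29c-3p (chromosome 1) to miR-29a-3p (chromosome 6), the log2 ratio differed by 0.24 with overlapping groups (exact permutation p = 0.5). Without EV 2 that difference was -0.0186, and the miR-29c-3p count carries the uncertainty named above. The 5p arms gave a larger difference from far fewer reads on the chromosome 6 side. The log2 ratio of miR-29c-5p (chromosome 1) to miR-29a-5p (chromosome 6) was 2.42, 2.10 and 2.32 in KO 1, KO 2 and KO 3, and 1.44, 1.47 and 1.79 in EV 1, EV 2 and EV 3. All KO libraries lay above all EV libraries, by 0.71 on average, with the smallest p the exact permutation test allows (p = 0.1, 0.4 after adjustment over the 4 pairs). In the other pairs the groups overlapped. How often ratios between any 2 microRNAs separate the groups was not computed. Groups did not overlap in 12% of the 133 arm ratios and, in CPM, in 29.1% of all tested microRNAs. Each library left out in turn gave a difference of 0.64 to 0.82. With the 5p arms of the miR-29b hairpins added, a sum chosen after the values were seen and not tested, chromosome 1 gave 100, 79 and 92 reads in KO 1, KO 2 and KO 3 and 57, 64 and 74 reads in EV 1, EV 2 and EV 3. Chromosome 6 gave 25, 17 and 25 reads in KO 1, KO 2 and KO 3 and 27, 34 and 34 reads in EV 1, EV 2 and EV 3. The ratio of chromosome 1 to chromosome 6 was 4.11 ± 0.493 in KO and 2.06 ± 0.154 in EV (SD, n = 3 each), and these sums hold at most 34 reads a library on the chromosome 6 side. Reads of the near-identical miR-29b-1-5p and miR-29b-2-5p may have been counted for each other. How far such reads enter this ratio was not tested. The abundant 3p arm of chromosome 6, miR-29a-3p, had a higher mean in KO, whereas the 5p sum of that chromosome had a lower one.

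**Figure D4:**
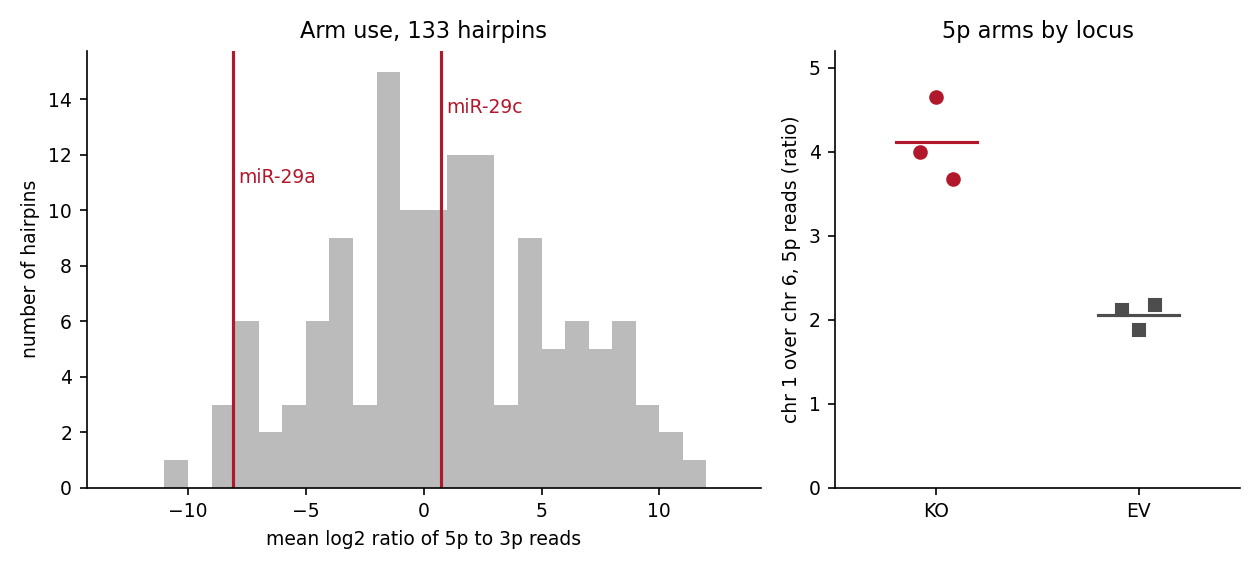
Left, the mean log2 ratio of 5p to 3p reads over 6 libraries for 133 hairpins (number of hairpins per bin), with miR-29a at -8.07 and miR-29c at 0.75 marked. Right, the ratio of summed 5p reads of the chromosome 1 hairpins to those of the chromosome 6 hairpins, 1 point per library with a bar at the mean, with KO at 3.68 to 4.65 and EV at 1.88 to 2.18.

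Outside the family, the microRNAs whose levels over the 6 libraries were most like those of miR-29a-3p were miR-26a-5p, miR-10b-3p and miR-145a-3p. Pearson r of log2 CPM was 0.97 for each, over 247 candidates with at least 10 CPM on average. The 6 points share their scaling factors, and with library size alone r was 0.92, 0.90 and 0.88 in that order. miR-26a-5p had 7301, 7520 and 6765 CPM in KO 1, KO 2 and KO 3 and 5537, 6251 and 6472 CPM in EV 1, EV 2 and EV 3, which is 0.24 on the log2 scale (SE 0.09, adjusted p = 0.132 by edgeR). Those most like miR-29c-3p were miR-423-5p, miR-503-3p and miR-30d-3p, with r of 0.90, 0.90 and 0.89 against a member of few reads, and of 0.65, 0.95 and 0.91 with library size alone. Within the family, r with miR-29a-3p was 0.86 for miR-29c-5p, 0.58 for miR-29b-3p, 0.38 for miR-29c-3p and 0.02 for miR-29a-5p.

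Other microRNAs known as regulators of fibrosis or of matrix genes changed in both directions. The list was chosen with earlier results of these data known, so its shares and median are a description only. Of 26 listed, 23 were tested. By edgeR 3 rose, 2 fell and 18 were not called, where 5% of all tested microRNAs rose and 2.61% fell, with a median log2 change of 0.11 beside -0.01 over all tested microRNAs. miR-34a-5p, which slows the cell cycle downstream of p53, had 78.9 ± 2.67 CPM in KO and 45.6 ± 1.69 CPM in EV (SD, n = 3 each; edgeR adjusted p = 0.00220). The other rises were miR-101a-3p at 0.57 (SE 0.08) and miR-30c-5p, a repressor of the matrix-associated growth factor Ctgf, at 0.41 (SE 0.10, edgeR adjusted p = 0.0314). miR-200b-3p and miR-200a-3p, which hold cells in an epithelial state, fell by 0.80 (SE 0.13) and 0.88 (SE 0.15) on the log2 scale. Listed relatives by name were not called. These were miR-101b-3p at 0.02 (SE 0.07), miR-30a-5p at 0.20 (SE 0.12) and miR-200c-3p at -0.33 (SE 0.39). By mean level miR-101b-3p, at 1324 CPM, exceeded miR-101a-3p, at 605 CPM. miR-30c-5p was called only without EV 3 among the fits that leave out 1 library. With library size alone the list had 0 rises and 2 falls (edgeR, where 0.217% of all tested microRNAs rose and 0.87% fell), with miR-34a-5p at 0.64 (SE 0.15), miR-101a-3p at 0.41 (SE 0.12) and miR-30c-5p at 0.27 (SE 0.09).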

How the data were processed

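Mature microRNAs were counted by small-RNA sequencing in 3 KO and 3 EV libraries, grouped by their titles. Per the labels' protocols, NEBNext small-RNA libraries were made from Trizol RNA and size-selected on a gel, with no molecular identifiers mentioned, so PCR copies count as reads. Bowtie, mm10 and DESeq 1.8.3 are named per the submitters' processing notes. The authors deposited whole-number counts per mature microRNA. They also deposited TPM, each count per 1000000 of its library, which served no test here. For 78 microRNAs the authors' deposited table gives a mean normalized signal per group, a log2 fold change and p-values.

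Here edgeR 4.0.16 (R 4.3.3) used TMM factors, filterByExpr (minimum count 10, total 15) and the quasi-likelihood test, with Benjamini-Hochberg adjustment at 0.05 over all tested microRNAs. Intervals are 95%. Arm ratios were fitted with limma 3.58.1 on log2 ratios with 0.5 added to each count. Member ratios used exact permutation. Alternatives included DESeq2 1.42.0. On simulated data the edgeR fit (456 microRNAs) recovered 79.6% of log2 changes of 1 and 44.0% of 0.5, and the arm fit (132 hairpins) 37.0% of log2 changes of 1. The simulation changed 98 microRNAs by 1 and 100 by 0.5, left 258 unchanged, and changed 27 hairpins. These shares exceed those called in the data, so the rates may be too high for these data. The members, lists and tests were chosen with earlier results of these data known. All 7 miR-29 rows are named, with the 3 microRNAs most like miR-29a-3p and miR-29c-3p. From the matrix list the called microRNAs with the 3 smallest adjusted p in each direction are named, with their listed relatives that were not called.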

Additional observations from a re-analysis of the deposited data

How the results depend on the processing

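The tested miR-29 arms kept the direction of their log2 change in every alternative setting that gave them an adjusted p. These settings were 16 for miR-29a-3p and miR-29b-3p, 15 for miR-29c-3p and miR-29c-5p and 13 for miR-29a-5p. DESeq2 gave miR-29a-5p no adjusted p with either trend, and its direction there was not examined. The count of called members was 0 in the edgeR fit given above. It was 1 with the 10 CPM filter (miR-29a-3p, edgeR adjusted p = 0.0464) and with a local DESeq2 trend, 3 without EV 3 and KO 2 together, and 0 to 1 with each library left out in turn. The count over all microRNAs, 35, was 5 with library size alone, 69 with the local DESeq2 trend, 56 without the filter, 88 without EV 3 and KO 2 together, and 15 to 59 with each library left out, 15 without KO 2 and 59 without EV 3. For arm ratios 3 hairpins were called without EV 3 and KO 2 together, and 0 to 0 with 1 library left out. The small arm difference of miR-29c changed sign without KO 2 (0.17), KO 3 (0.10), EV 2 (0.29), EV 3 (0.0494) and EV 3 and KO 2 together (0.25), and ranged from -0.43 to 0.29 over all its settings. The ratio of miR-29b-3p to miR-29a-3p ranged from -0.0825 to 0.22 with each library left out, that of miR-29c-3p to miR-29a-3p from -0.0186 to 0.47, both below 0 without EV 2, and that of miR-29b-3p to miR-29c-3p from -0.39 to 0.0521, above 0 without KO 2 (0.0521) and without EV 3 and KO 2 together (0.0518). The cause of these changes was not tested. Replicate numbers are shared by the groups, and the labels do not say whether they pair the libraries. Those of numbers 2 and 3 deviated in opposite directions (r = -0.36 and -0.56 over 249 microRNAs) and only those of number 1 together (0.50). These correlations cannot show whether libraries of 1 number shared a culture or preparation. KO 2 deviated most like EV 3 (r = 0.70). With the replicate number as a block 34 microRNAs and 0 miR-29 members were called, miR-29a-3p stood at 0.28 (SE 0.10, edgeR adjusted p = 0.0988), no hairpin was called, and the member ratios had differences of 0.11, 0.24, -0.13 and 0.71 as without it. Depth limits the 5p arms of miR-29a and miR-29b most, at 2 to 22 reads a library.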
